A study of Mus musculus with 10 samples.

Results

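The proteasome genes described here were the 49 of 28585 genes in a table of RNA sequencing counts whose mouse symbol starts with Psma, Psmb, Psmc, Psmd, Psme, Psmf or Psmg followed by a digit, pseudogene symbols left out. The genes Psmb8, Psmb9, Psmb10, Psme1 and Psme2, which encode the interferon-inducible forms, were kept apart as the immunoproteasome set of 5, which leaves 44 others. All 49 passed the filter on low counts. The symbol rule also takes in Psmc3ip, which encodes a meiotic recombination factor and no proteasome subunit, and Psme2b, a near-copy of Psme2.

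The study sorted fluorescent cells from the ipsilateral hemisphere of mice after brain ischemia and sequenced their polyadenylated RNA. Transgenic CD11c cells were CD11c-eYFP+ cells of Tg(Itgax-Venus)1Mnz mice aged 13 to 14 weeks, in which the Itgax promoter, that of the CD11c gene, drives the fluorescent protein, and they gave 4 libraries, replicates 23, 24, 26 and 27. Parabiotic CD11c cells were CD11c-eYFP+ cells from the brains of C57BL/6 mice aged 15 to 16 weeks that shared their circulation with a Tg(Itgax-Venus)1Mnz partner, so that labelled cells carried the partner's transgene, and they gave 3 libraries, replicates 3, 11 and 15. Microglia, the resident macrophages of the brain, were CX3CR1+ cells of CX3CR1CreERT2:Rosa26-tdT mice aged 13 to 14 weeks, in which a tamoxifen-dependent Cre recombinase under Cx3cr1 switches on a red reporter, and they gave 3 libraries, replicates 39, 40 and 41. All 3 groups came from ischemic tissue, and no uninjured group was analysed here. Mice were female where the labels give the sex. The labels do not say that replicates were separate animals, so p-values measure only the spread between these samples. Parabiotic replicate 15 was placed by its title. Its labels name C57BL/6 as the strain and Tg(Itgax-Venus)1Mnz as the genotype, where those of replicates 3 and 11 name the parabiotic pair in both fields, and they give no cell type, no sex and no joined partner.

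The proteasome degrades proteins that carry ubiquitin chains. Its 20S core is a barrel of alpha and beta subunit rings with the cutting sites inside, and the 19S cap of ATPases and other subunits binds, unfolds and feeds in the substrate. In immune cells and after interferon, the beta subunits Psmb8, Psmb9 and Psmb10 can take the places of the constitutive catalytic subunits Psmb5, Psmb6 and Psmb7, and the Psme1 and Psme2 proteins form the PA28 cap, an arrangement known for making peptides for MHC class I.

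Libraries held 31534625 to 41730688 counts. As a check of the labels, the summed level of 8 microglia markers was 5890 to 17000 CPM (counts per 1000000 counts of a library, scaled by the TMM method) in transgenic libraries, 2050 to 3590 CPM in parabiotic libraries and 17800 to 20500 CPM in microglia. The summed level of 8 dendritic cell markers was 3070 to 12400 CPM in transgenic libraries, 19400 to 24400 CPM in parabiotic libraries and 180 to 273 CPM in microglia. The summed level of 8 neutrophil markers was 18.1 to 50.7 CPM in transgenic libraries, 50.7 to 766 CPM in parabiotic libraries and 0.424 to 2.6 CPM in microglia. The transgenic group was uneven, with microglia markers at 10900, 11100, 17000 and 5890 CPM and dendritic cell markers at 11200, 12400, 3070 and 5050 CPM in replicates 23, 24, 26 and 27. Replicates 26 and 27 also carry library numbers apart from those of the other 8 libraries. These differences in cell markers move with every comparison below, and their part in the proteasome results was not tested. In such pools of sorted cells, fewer cells of a type and less RNA per cell cannot be told apart.

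Many constitutive proteasome genes were higher in parabiotic CD11c cells than in microglia, fewer passed the test in transgenic CD11c cells, and of the 5 immunoproteasome genes 1 passed in parabiotic cells and 0 in transgenic cells. The 44 other members summed to 3398, 3393, 4580 and 5742 CPM in transgenic replicates 23, 24, 26 and 27, to 4916, 4398 and 4351 CPM in parabiotic replicates 3, 11 and 15, and to 2692, 2676 and 3264 CPM in microglia replicates 39, 40 and 41. Every CD11c library lay above every microglia library, and the transgenic libraries spread on both sides of the parabiotic ones. The immunoproteasome set summed to 496, 473, 488 and 335 CPM in transgenic libraries, 608, 570 and 687 CPM in parabiotic libraries and 454, 406 and 534 CPM in microglia, in the same order of replicates. Only the parabiotic libraries lay wholly above microglia in that sum, and transgenic replicate 27 was the lowest of all 10. Transcripts of all 49 genes together made up 0.394% to 0.598% of the counts in transgenic libraries, 0.484% to 0.548% in parabiotic libraries and 0.318% to 0.374% in microglia.

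**Figure D1:**
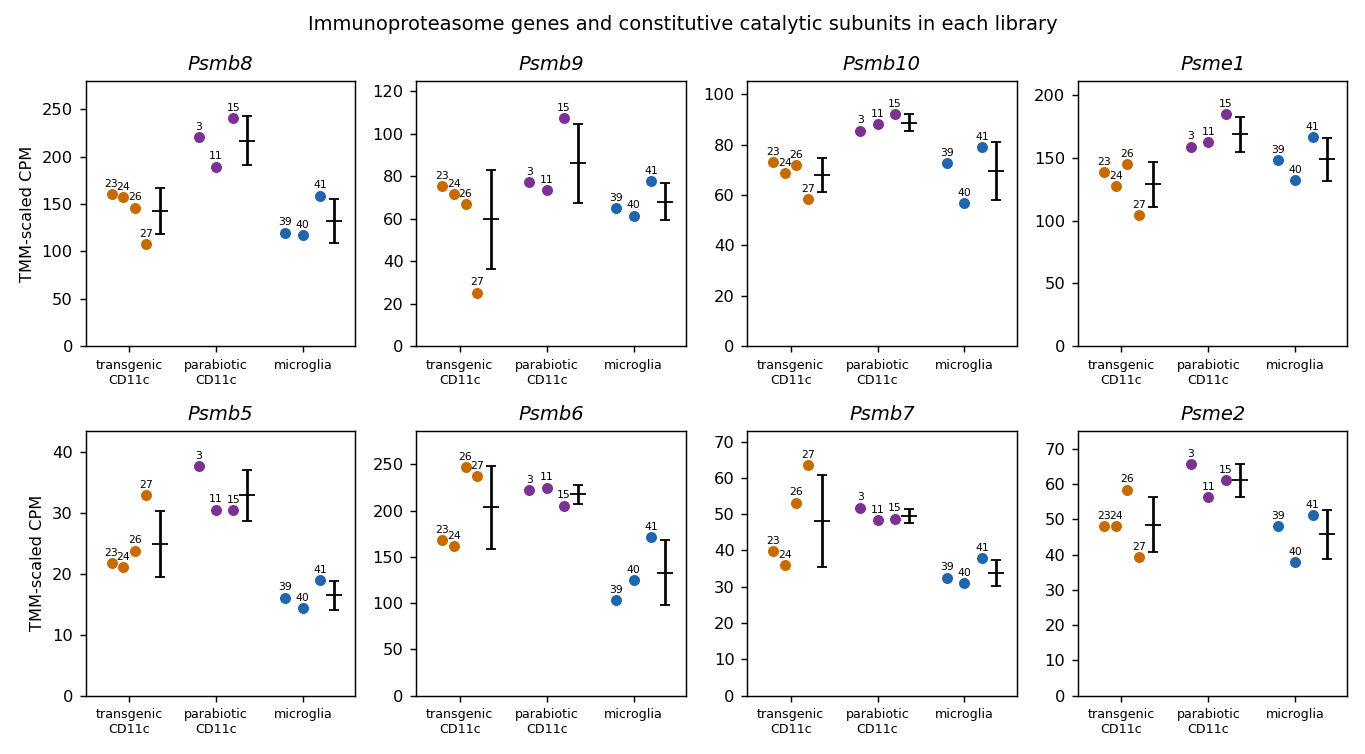
Levels of the 5 immunoproteasome genes and the constitutive catalytic subunits in TMM-scaled CPM (vertical axes from 0), 1 numbered point per library, with the transgenic group left, the parabiotic group in the middle and microglia right, and the mean ± SD beside each group. Psmb5 and Psmb6 sit higher in parabiotic libraries than in microglia, while the transgenic points of Psmb9 include 1 far below the others, at 25.2 CPM.

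Parabiotic CD11c cells against microglia sets cells that reached the injured brain from the blood against resident cells. Of the 49 proteasome genes, 21 were higher in parabiotic cells, where 17.4% of all 15151 genes tested were, and 1 was lower, where 17.9% of all genes were (edgeR quasi-likelihood test, Benjamini-Hochberg adjusted p under 0.05). The median log2 fold change was 0.55 over the 49, beside -0.02 over all genes tested. Fold changes were positive for 45 of 49. All parabiotic libraries lay above all microglia libraries in 39 genes, where 30.5% of all genes did, and below them in 2, where 29.7% did. The count of genes called higher depends on single libraries. It was 4 without microglia replicate 40 (10.6% of all genes higher) and 6 without microglia replicate 39 (12%), both near the share over all genes. Without parabiotic replicates 3, 11 and 15 it was 9, 13 and 12, where 12.4%, 13.1% and 12.7% of all genes were higher. The median over the 49 stayed between 0.49 and 0.64 when each of the 10 libraries was left out in turn.

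**Figure D2:**
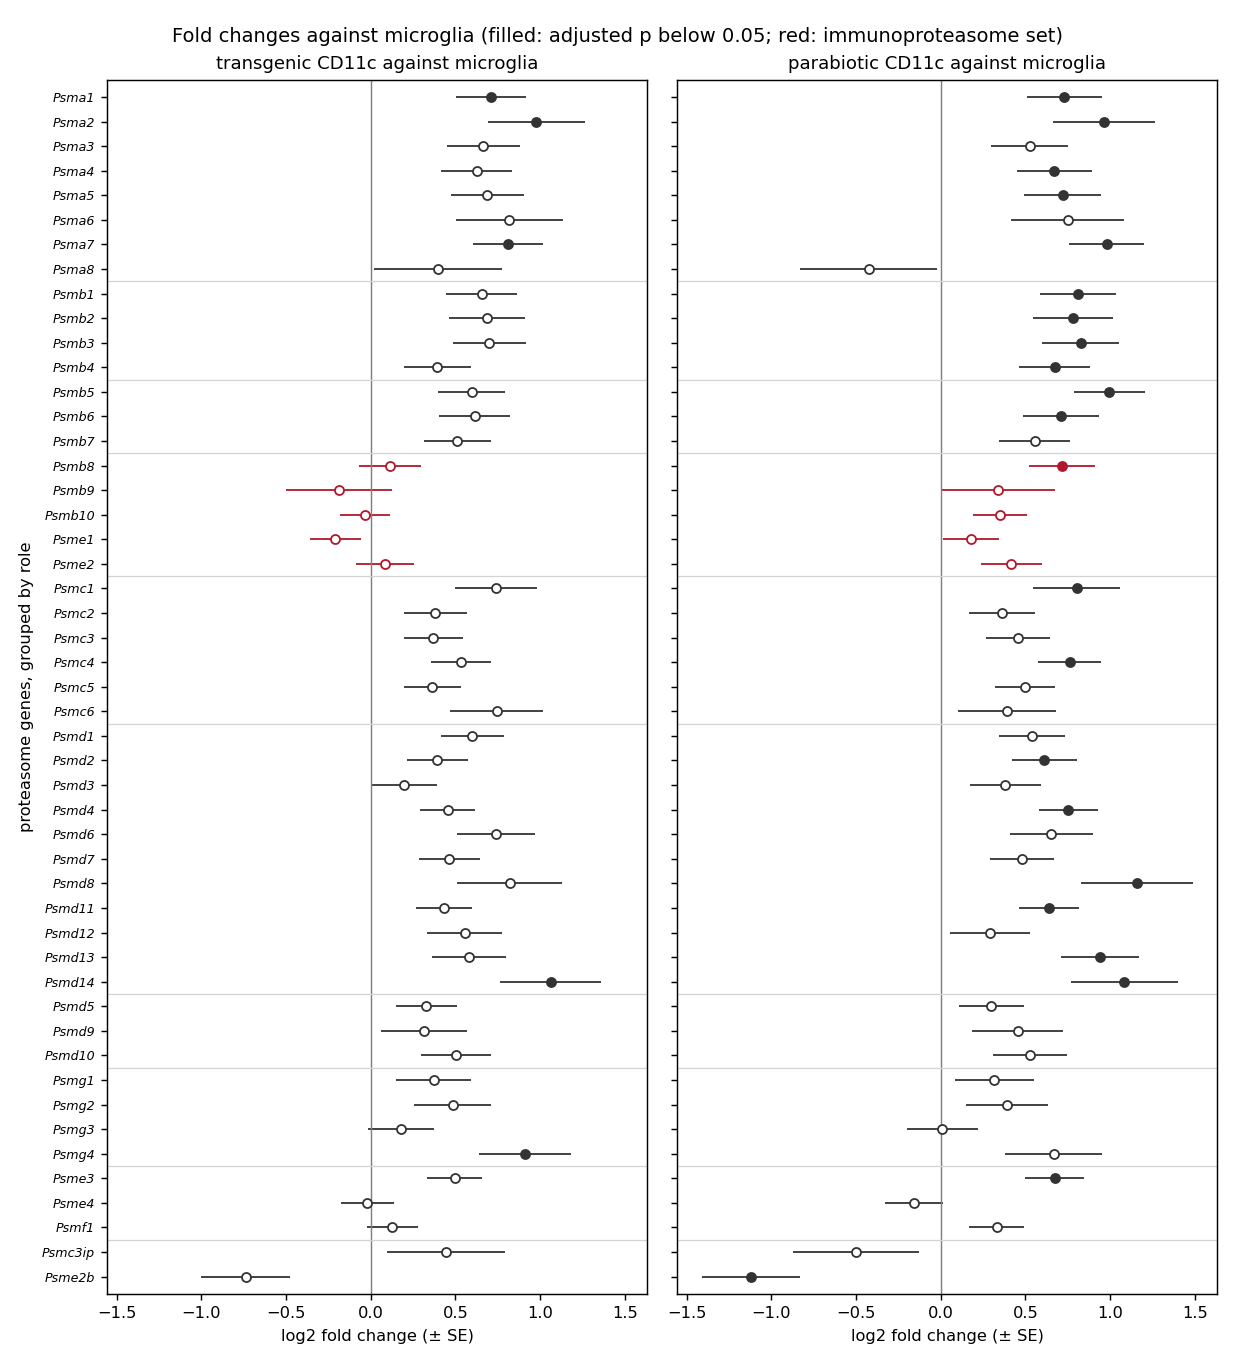
Log2 fold change ± SE of each of the 49 proteasome genes against microglia (horizontal axis), transgenic cells left and parabiotic cells right, grouped by role. Filled points have an adjusted p below 0.05 and the immunoproteasome set is red. Points lie right of 0 for 44 genes in transgenic cells and for 45 in parabiotic cells.

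The alpha ring forms the gated ends of the 20S core, and 5 of its 8 genes, Psma1, Psma2, Psma4, Psma5 and Psma7, were higher in parabiotic cells than in microglia. Psma7 had 184, 171 and 168 CPM in parabiotic libraries and 89.0, 78.8 and 97.8 CPM in microglia. The groups were far apart, with a log2 fold change of 0.98 ± 0.22 (SE; adjusted p = 0.00527, edgeR). Psma2 had 145, 141 and 130 CPM in parabiotic libraries and 68.5, 62.1 and 82.4 CPM in microglia, again without overlap (log2 fold change 0.96 ± 0.30, adjusted p = 0.0279, edgeR). Psma3 and Psma6 did not pass, at 0.53 and 0.75 on the log2 scale with adjusted p of 0.0922 and 0.103 in the edgeR test. Psma8, the alpha subunit of the testis, was low, at 3.21 ± 1.60 CPM in parabiotic libraries and 4.31 ± 0.87 CPM in microglia (SD, n = 3 each).

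The structural beta subunits, which complete the beta rings without cutting sites, were all higher: Psmb1, Psmb2, Psmb3 and Psmb4 had log2 fold changes of 0.81, 0.78, 0.83 and 0.67. In each of the 4 genes the parabiotic libraries lay above the microglia libraries. Psmb3 averaged 38.3 CPM in parabiotic libraries and 21.6 CPM in microglia, and Psmb1 averaged 165 CPM in parabiotic libraries and 93.8 CPM in microglia.

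Of the constitutive catalytic subunits, Psmb5, which carries the chymotrypsin-like site, and Psmb6, which carries the caspase-like site, were higher in parabiotic cells. Psmb5 had 37.6, 30.5 and 30.4 CPM in parabiotic libraries and 16.1, 14.3 and 19 CPM in microglia. Each parabiotic value was well above each microglia value (log2 fold change 1.00 ± 0.21, adjusted p = 0.00374, edgeR), and this was the lowest p of the 49. Psmb6 had 222, 225 and 205 CPM in parabiotic libraries and 103, 125 and 171 CPM in microglia, where replicate 41 came closest (0.71 ± 0.22, adjusted p = 0.0298, edgeR). Psmb7, the subunit with the trypsin-like site, had 51.8, 48.3 and 48.8 CPM in parabiotic libraries and 32.5, 31 and 37.9 CPM in microglia. Its groups did not overlap, but it missed the threshold (0.55 ± 0.21, adjusted p = 0.0613, edgeR). Psmb7 lies across from Nek6 on the other strand, and the library kit keeps no strand, so reads from their shared bases cannot be told apart. The spans of Psmd13 and Sirt3, Psme1 and Emc9, Psmc3 and Slc39a13, Psmd1 and Htr2b, and Psmc3ip and Mlx also overlap on opposite strands. The same limit holds for any exonic bases they share. Only whole gene spans were compared, so shared exonic bases were not shown for any of these pairs, Psmb7 and Nek6 among them.

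The stretches upstream of Psmb5, Psmb6 and Psmb10 are shown because the first 2 hold the core letters of the antioxidant response element, a site that Nfe2l1 and Nfe2l2 are known to bind in proteasome genes, and Psmb10, an interferon-inducible gene on the list of 5, holds no match. They come from RefSeq on GRCm38.p6, run 5′ to 3′ on the gene's strand and leave out bases annotated as transcribed. Psmb5 spans chr14:54618023-54618245 (minus strand), Psmb6 chr11:70525107-70525356 (plus strand) and Psmb10 chr8:105938445-105938642 (minus strand). Capitals mark the match to TGACNNNGC.
Psmb5: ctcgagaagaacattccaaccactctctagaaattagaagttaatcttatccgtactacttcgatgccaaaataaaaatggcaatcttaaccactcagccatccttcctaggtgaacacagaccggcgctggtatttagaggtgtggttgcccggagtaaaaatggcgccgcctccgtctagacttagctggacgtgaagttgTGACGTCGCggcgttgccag
Psmb6: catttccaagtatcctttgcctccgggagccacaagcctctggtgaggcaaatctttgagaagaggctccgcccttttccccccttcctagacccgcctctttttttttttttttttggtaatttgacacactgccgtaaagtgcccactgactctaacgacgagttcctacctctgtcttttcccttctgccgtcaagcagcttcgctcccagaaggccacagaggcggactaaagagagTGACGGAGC
Psmb10: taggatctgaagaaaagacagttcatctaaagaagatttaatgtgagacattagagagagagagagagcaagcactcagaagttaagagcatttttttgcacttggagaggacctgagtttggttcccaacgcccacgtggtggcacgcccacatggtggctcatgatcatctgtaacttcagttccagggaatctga

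Promoter windows of 250 bases before the RefSeq start were found for 41 of the 49 genes, and both strands were searched. The windows of Psma4, Psmb8, Psmb9, Psmd13 and Psme2b lie wholly within exons annotated by GENCODE M21, so they are transcribed sequence and were left out, as were the 4.26% of all genes for which the same holds. TGACNNNGC was in 5 of 33 members outside the immunoproteasome set (15.2%: Psmb5, Psmb6, Psmc6, Psmd12 and Psmd9) and in 0 of the 3 remaining immunoproteasome genes, Psmb10, Psme1 and Psme2, beside 11.4% of all 25873 remaining genes. The core of the interferon-stimulated response element, a pair of GAAA with 2 bases between them, was in 3 of 33 (9.09%: Psmb3, Psmd4 and Psmd9) and in 0 of 3, beside 3.47% of all genes. The interferon gamma activated site TTCNNNGAA was in 1 of 33, Psmg1, and in 0 of 3, beside 8.17% of all genes. CCAAT, the box bound by NF-Y, was in 13 of 33 and in 0 of 3, beside 37.7% of all genes. Windows only partly within exons were searched whole, so some matches lie in transcribed bases, such as the CCAAT of Psma7 and of Psmc2. The shares say only which letters stand in these windows.

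The 19S ATPases, the ring that unfolds substrates, had 2 of 6 genes higher in parabiotic cells, Psmc1 and Psmc4, although parabiotic libraries lay above microglia in all 6. Psmc4 had 150, 126 and 136 CPM in parabiotic libraries and 74.6, 71.4 and 96.7 CPM in microglia (0.76 ± 0.19, adjusted p = 0.00888, edgeR). Its call was lost without microglia replicate 40, at an adjusted p of 0.0536 (edgeR). Psmc1 averaged 126 CPM in parabiotic libraries and 71.9 CPM in microglia, a log2 fold change of 0.80. The other ATPases, Psmc2, Psmc3, Psmc5 and Psmc6, lay between 0.36 and 0.50 and were not called.

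Of 11 non-ATPase subunits of the 19S cap, 6 were higher in parabiotic cells, Psmd2, Psmd4, Psmd8, Psmd11, Psmd13 and Psmd14, and no parabiotic library overlapped microglia in any of the 11. Psmd8 had the largest fold change of the 49, with 364, 323 and 289 CPM in parabiotic libraries and 152, 130 and 154 CPM in microglia. The lowest parabiotic value was well above the highest of microglia (1.16 ± 0.33, adjusted p = 0.0181, edgeR). Psmd14, the enzyme that removes ubiquitin chains as substrates enter, had 147, 124 and 128 CPM in parabiotic libraries and 59.1, 57.8 and 71.5 CPM in microglia (1.09 ± 0.31, adjusted p = 0.02, edgeR). These groups were also wide apart. Psmd13 had 140, 129 and 121 CPM in parabiotic libraries and 70.6, 62.6 and 70.6 CPM in microglia (0.94 ± 0.23, adjusted p = 0.00854, edgeR). Psmd4, a ubiquitin receptor, had 150, 126 and 134 CPM in parabiotic libraries and 80.0, 74.0 and 89.0 CPM in microglia (0.75 ± 0.17, adjusted p = 0.00615, edgeR). Psma7, Psmb5, Psmd4 and Psmd13 were the members called in all 19 alternative analyses of this comparison. Without microglia replicate 40 or 39, or without parabiotic replicate 3, the calls of Psmd8, Psmd14, Psmd2 and Psmd11 were lost. Those of Psma1, Psma2, Psma4, Psma5, Psmb2, Psmb4, Psmb6 and Psmc1 were lost without any 1 parabiotic library or without microglia replicate 39 or 40, and those of Psmb1 and Psmb3 without either of these 2 microglia libraries.

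The lists of assembly chaperones and regulators are too short to set against the 17.4% of all genes that were higher in parabiotic cells. None of the 4 chaperones of 20S assembly and none of the 3 of 19S assembly was called in parabiotic cells against microglia, with log2 fold changes between 0.01 for Psmg3 and 0.67 for Psmg4 among the 20S chaperones and between 0.30 for Psmd5 and 0.53 for Psmd10 among the 19S chaperones. At an unadjusted p under 0.05 there was 1 of each, Psmg4 and Psmd10, and DESeq2 and limma-voom called 0. Psme3, the PA28 gamma activator of the nucleus, had 193, 173 and 165 CPM in parabiotic libraries and 104, 104 and 125 CPM in microglia (0.67 ± 0.17, adjusted p = 0.0108, edgeR). Its groups were apart, and its call was lost without microglia replicate 40 (adjusted p = 0.0579, edgeR). The PA200 activator gene Psme4 had a log2 fold change of -0.16 and the inhibitor gene Psmf1 one of 0.33, and neither was called. Psme2b fell, with 4.34, 4.99 and 5.04 CPM in parabiotic libraries and 13.2, 8.93 and 9.15 CPM in microglia (-1.12 ± 0.29, adjusted p = 0.0108, edgeR). It is a near-copy of Psme2 inside a longer annotated gene on the same strand, so its reads may be divided with either, and the call was lost without microglia replicate 39 (adjusted p = 0.054, edgeR). Psmc3ip was not called, at a log2 fold change of -0.50.

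Of the 5 immunoproteasome genes 1 was higher in parabiotic cells, a share close to the 17.4% of all genes, and the median log2 fold change of the 5 was 0.35, beside 0.63 for the 44 others. Psmb8, which takes the place of Psmb5, lies in the MHC region at chr17:34197721-34201454. It had 221, 190 and 241 CPM in parabiotic libraries and 120, 117 and 159 CPM in microglia, without overlap (0.72 ± 0.19, adjusted p = 0.0144, edgeR). The call was lost without parabiotic replicate 15 or without microglia replicate 39 or 40, with adjusted p up to 0.0897 (edgeR). Psmb10, which takes the place of Psmb7, lies at chr8:105935735-105938444 and had 85.6, 88.2 and 92.3 CPM in parabiotic libraries and 72.6, 56.9 and 79.2 CPM in microglia. Those libraries did not overlap either, but the gene was not called (0.35 ± 0.16, adjusted p = 0.115, edgeR). Psmb9, which takes the place of Psmb6, had 77.1, 73.5 and 107 CPM in parabiotic libraries and 64.9, 61.4 and 77.7 CPM in microglia, and its groups overlapped (0.34 ± 0.34, adjusted p = 0.47, edgeR). The span of Psmb9 at chr17:34181987-34187764 overlaps that of Tap1 on the other strand, with the same limit for any exonic bases they share.

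The PA28 subunits, the products of neighbouring genes on chromosome 14, gave no call. Psme1 had 159, 163 and 185 CPM in parabiotic libraries and 148, 132 and 167 CPM in microglia, which overlapped (0.18 ± 0.17, adjusted p = 0.429, edgeR). Psme2 had 65.6, 56.3 and 61.3 CPM in parabiotic libraries and 48.2, 37.9 and 51.2 CPM in microglia, just apart (0.42 ± 0.18, adjusted p = 0.0953, edgeR). Fitted with the parabiotic and microglia libraries alone, 3 of the 5 immunoproteasome genes and 35 of the 44 others were called higher, where the share over all genes was 26.3% in that fit.

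Transgenic CD11c cells against microglia, both from animals that were not joined, gave fewer calls. Of 49 genes, 5 were higher in transgenic cells, near the share of 8.88% over all genes, and 0 were lower, where 4.79% were (edgeR). At an unadjusted p under 0.05 (edgeR), 28 of the 49 were higher, where 19.5% of all genes were. DESeq2 called 15 higher (13% of all genes) and limma-voom 3 (6.82%). In the lower direction 1 gene, Psme2b, had an unadjusted p under 0.05, where 12.9% of all genes did. DESeq2 called 1 lower (9.66% of all genes) and limma-voom called 0 (6.55%). Fold changes were positive for 44 of 49, with a median of 0.50 on the log2 scale beside 0.02 over all genes. Transgenic libraries lay wholly above microglia in 17 genes, where 15.6% of all genes did, and wholly below in 1, where 14.7% did. All 17 belonged to the 44 others. Both comparisons with microglia use the same microglia libraries, so their fold changes are not independent of each other.

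The 5 genes called were the alpha subunits Psma1, Psma2 and Psma7, the deubiquitinating subunit Psmd14 and the 20S assembly chaperone Psmg4. Psma7 had 121, 119, 172 and 211 CPM in transgenic replicates 23, 24, 26 and 27 and 89.0, 78.8 and 97.8 CPM in microglia. The 4 transgenic values lay above the 3 microglia values, with replicates 26 and 27 highest (0.81 ± 0.21, adjusted p = 0.026, edgeR). Psmd14 had 82.4, 90.2, 135 and 217 CPM in transgenic libraries and 59.1, 57.8 and 71.5 CPM in microglia (1.06 ± 0.30, adjusted p = 0.0388, edgeR). Its transgenic values ran over a range much wider than that of microglia. Psma1 had 208, 190, 336 and 291 CPM in transgenic libraries and 146, 139 and 185 CPM in microglia (0.71 ± 0.21, adjusted p = 0.045, edgeR). Psma2 had 97.6, 89.9, 148 and 224 CPM in transgenic libraries and 68.5, 62.1 and 82.4 CPM in microglia (0.98 ± 0.29, adjusted p = 0.0446, edgeR). Psmg4 had 12, 8.12, 18.6 and 14.3 CPM in transgenic libraries and 6.47, 5.90 and 8.77 CPM in microglia, and replicate 24 fell within the range of microglia (0.91 ± 0.27, adjusted p = 0.0484, edgeR).

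These calls sat close to the threshold. The count of 5 was 0 without transgenic replicate 26 (8.02% of all genes higher) and 0 without microglia replicate 39 or 40 (3.66% and 3.54%). It was 15 without transgenic replicate 23 and 17 without transgenic replicate 24, where at most 12% of all genes were higher. DESeq2 called 15 (13%). The count was 3 without transgenic replicate 27 (8.61%), and 1 without microglia replicate 41 (5.59%) or any 1 parabiotic replicate (6.26% to 6.3%). With a term for transgenic replicates 26 and 27, none of the 49 was called in either direction. In that fit 6.75% of all genes were higher and 1.85% lower, and the median log2 fold change of the 49 was 0.24.

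Of the immunoproteasome set 0 of 5 were called in transgenic cells against microglia, 0 had an unadjusted p under 0.05, DESeq2 and limma-voom called 0, and the libraries overlapped in all 5. Psmb8 had 161, 157, 146 and 108 CPM in transgenic libraries and 120, 117 and 159 CPM in microglia (0.11 ± 0.18, adjusted p = 0.693, edgeR). Psmb9 had 75.2, 71.7, 66.7 and 25.2 CPM in transgenic libraries and 64.9, 61.4 and 77.7 CPM in microglia (-0.19 ± 0.31, adjusted p = 0.709, edgeR). Psmb10 had 73.0, 68.6, 71.8 and 58.4 CPM in transgenic libraries and 72.6, 56.9 and 79.2 CPM in microglia (-0.03 ± 0.15, adjusted p = 0.898, edgeR). In these 3 genes transgenic replicate 27 was the lowest of its group. Psme1 had 139, 127, 145 and 105 CPM in transgenic libraries and 148, 132 and 167 CPM in microglia (-0.21 ± 0.15, adjusted p = 0.37, edgeR). Psme2 had 48.1, 48.2, 58.5 and 39.2 CPM in transgenic libraries and 48.2, 37.9 and 51.2 CPM in microglia (0.08 ± 0.17, adjusted p = 0.763, edgeR).

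The constitutive catalytic subunits were not called in transgenic cells by edgeR. All 3 were higher at an unadjusted p under 0.05, where 19.5% of all genes were, and DESeq2 called 1 (13% of all genes higher). Psmb5 had 21.7, 21.1, 23.8 and 32.9 CPM in transgenic libraries, all above the 16.1, 14.3 and 19 CPM of microglia (0.60 ± 0.20, adjusted p = 0.0659, edgeR). Psmb6 had 168, 162, 247 and 237 CPM in transgenic libraries and 103, 125 and 171 CPM in microglia, which overlapped (0.61 ± 0.21, adjusted p = 0.0746, edgeR). Psmb7 had 39.8, 36, 53.2 and 63.5 CPM in transgenic libraries and 32.5, 31 and 37.9 CPM in microglia, which also overlapped (0.51 ± 0.20, adjusted p = 0.104, edgeR).

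**Figure D3:**
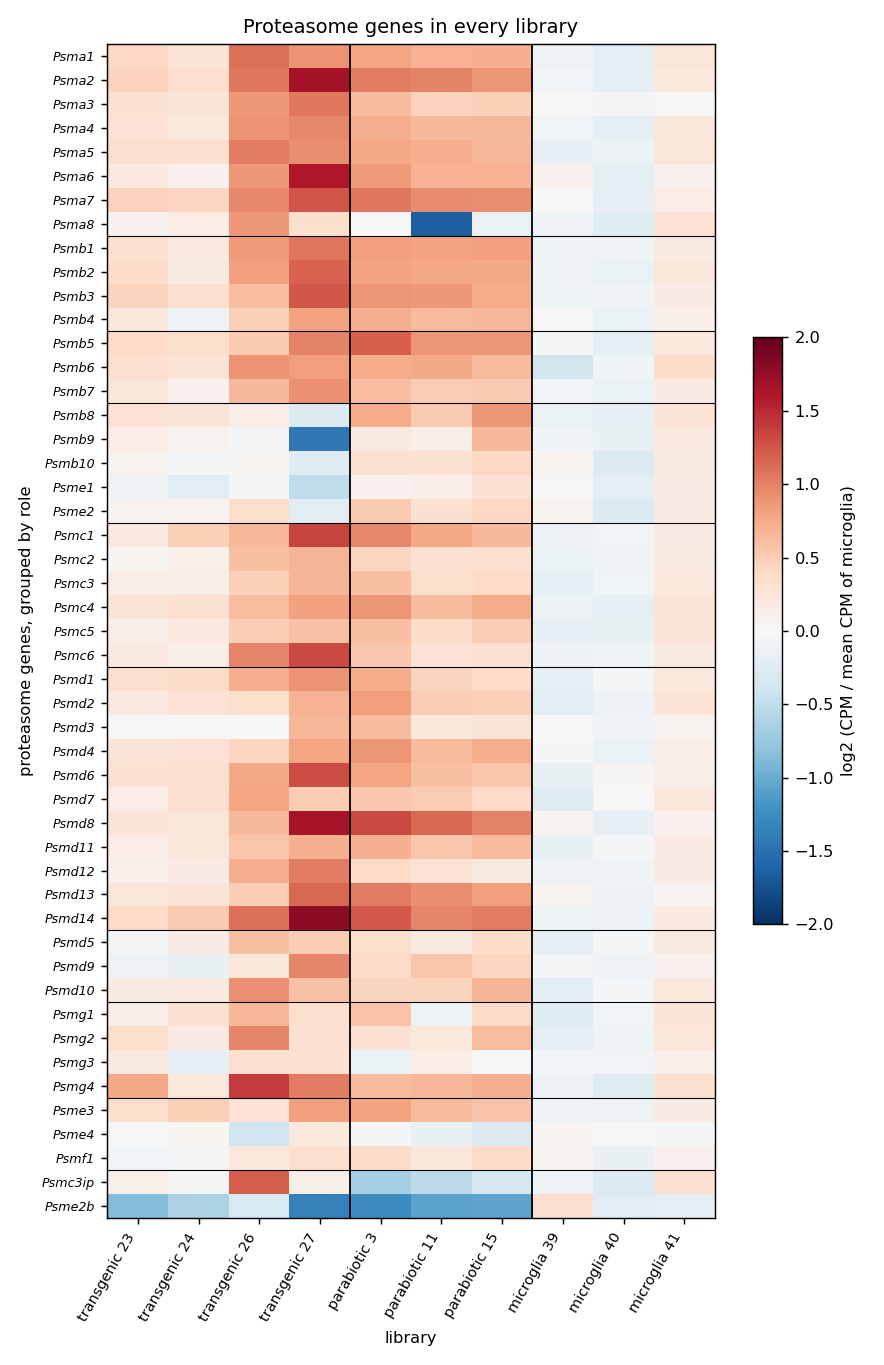
Level of every proteasome gene in every library as log2 of CPM over the microglia mean (colour scale, red above and blue below), genes by role from top to bottom, and libraries from transgenic at the left through parabiotic to microglia at the right. Transgenic replicate 27 is darkest red for many constitutive genes and blue for the 5 immunoproteasome genes, and Psme2b is blue in all CD11c libraries.

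Transgenic against parabiotic CD11c cells compares labelled cells of unjoined reporter mice with labelled cells that came through the shared circulation. None of the 49 genes was called in either direction, where 10.1% of all genes were, that is 7.63% higher and 2.42% lower (edgeR). At an unadjusted p under 0.05, 1 gene was higher, Psmc3ip, where 14.6% of all genes were. At that threshold 3 were lower, Psmb8, Psmb10 and Psme1, where 9.11% of all genes were. DESeq2 called 0 higher (10.4% of all genes) and 1 lower, Psmb8 (5.57%). The limma-voom fit called 0 in both directions, where 6.46% of all genes were higher and 3.6% lower. Fold changes were negative for 32 of 49, with a median of -0.07 on the log2 scale beside 0.04 over all genes. Transgenic libraries lay wholly above the parabiotic ones in 2 genes, where 12.4% of all genes did, and wholly below in 3, where 10.3% did.

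The 3 genes wholly below were immunoproteasome genes. Psmb8 had 161, 157, 146 and 108 CPM in transgenic libraries and 221, 190 and 241 CPM in parabiotic libraries (-0.60 ± 0.18, adjusted p = 0.0576, edgeR). Psmb10 had 73.0, 68.6, 71.8 and 58.4 CPM in transgenic libraries and 85.6, 88.2 and 92.3 CPM in parabiotic libraries (-0.38 ± 0.15, adjusted p = 0.141, edgeR). Psme1 had 139, 127, 145 and 105 CPM in transgenic libraries and 159, 163 and 185 CPM in parabiotic libraries (-0.39 ± 0.15, adjusted p = 0.145, edgeR). In each of the 3 the highest transgenic library stayed under the lowest parabiotic one. Psmb9 and Psme2 overlapped, at -0.53 and -0.33. All 5 fold changes were negative, with a median of -0.39, beside -0.04 for the 44 others, and none passed the test. That gap between the medians was not seen with a term for transgenic replicates 26 and 27, at -0.34 for the 5 and -0.38 for the 44. Nor was it seen without these 2 libraries, at -0.36 for the 5 and -0.39 for the 44. Both analyses take the transgenic level from the other transgenic libraries alone, so they are not separate checks. Without transgenic replicate 27 the count of lower genes was 4, where 5.7% of all genes were lower. Without replicates 26 and 27 together it was 19, all of them outside the immunoproteasome set, where 9.23% of all genes were lower. With a term for replicates 26 and 27 it was 5, where 2.53% of all genes were lower: Psma7, Psmb1, Psmb4, Psmd8 and Psmd13.

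Among the transgenic libraries themselves, replicates 26 and 27 both lay above replicates 23 and 24 in 39 of the 44 other genes and below them in 0, where the shares over all genes were 26.8% above and 30.8% below. The ratio of their mean level to that of replicates 23 and 24 had a median of 1.49 over the 44 and 0.92 over the 5 immunoproteasome genes. None of the 5 was higher in both, and Psmb8 and Psmb9 were lower in both. Psmd8 had 174, 172, 228 and 454 CPM in replicates 23, 24, 26 and 27, and Psmd13 had 80.1, 80.8, 95.3 and 150 CPM. Replicates 23 and 24 were near one another in both genes, and replicate 27 stood highest. Of all 10 libraries, replicate 27 held the highest value for 24 of the 44 genes and replicate 26 for 12. These ranks were not taken over all genes, so no share stands beside these counts. The median coefficient of variation over the 49 genes was 26.3% in transgenic libraries, 8.18% in parabiotic libraries and 12.6% in microglia. Mitochondrially encoded genes took 0.422%, 0.214%, 0.816% and 0.624% of the counts of replicates 23, 24, 26 and 27, and the cell markers given above also divide these libraries. The part of either in the proteasome levels was not tested.

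**Figure D4:**
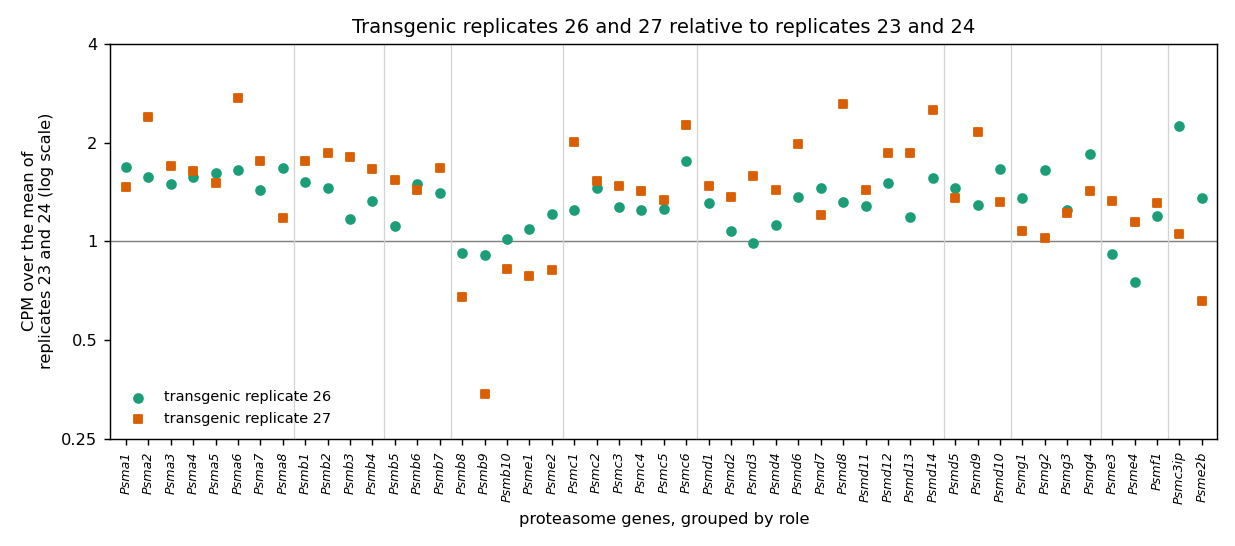
CPM of each proteasome gene in transgenic replicate 26 (circles) and replicate 27 (squares) over the mean of replicates 23 and 24 (vertical axis, log scale), genes grouped by role along the horizontal axis. Most constitutive genes lie above 1 in both, while Psmb8 and Psmb9 lie below 1 in both and Psmb9 is lowest in replicate 27.

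The balance between each inducible subunit and the subunit it replaces was taken as a log2 ratio of CPM within a library, which no scaling of libraries can move. Ratios compare the same pair across libraries and are not per length. For Psmb8 to Psmb5 the log2 ratio was 2.89, 2.89, 2.62 and 1.71 in transgenic replicates 23, 24, 26 and 27, 2.56, 2.64 and 2.99 in parabiotic libraries and 2.90, 3.04 and 3.07 in microglia. The transgenic ratios lay below all those of microglia, the nearest by a narrow margin, and the parabiotic ratios overlapped with them. For Psmb9 to Psmb6 it was -1.16, -1.17, -1.89 and -3.24 in transgenic libraries, -1.53, -1.61 and -0.94 in parabiotic libraries and -0.67, -1.03 and -1.14 in microglia. Again the transgenic ratios lay below microglia, replicates 23 and 24 by a narrow margin and replicate 27 far lowest, and the parabiotic ratios overlapped. For Psmb10 to Psmb7 it was 0.88, 0.93, 0.43 and -0.12 in transgenic libraries, 0.72, 0.87 and 0.92 in parabiotic libraries and 1.16, 0.88 and 1.06 in microglia, and all groups overlapped. An exact permutation test cannot go below 0.0571 with 4 libraries against 3, or below 0.10 with 3 against 3, so no test was made.

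For the caps, the log2 ratio of Psme1 to Psme3 was -0.02, -0.27, 0.10 and -0.91 in transgenic libraries, -0.28, -0.09 and 0.16 in parabiotic libraries and 0.51, 0.35 and 0.42 in microglia. Every CD11c library lay below every microglia library. The log2 ratio of Psme2, the other PA28 subunit, to Psme3 was -1.55, -1.68, -1.21 and -2.32 in transgenic libraries, -1.56, -1.62 and -1.43 in parabiotic libraries and -1.12, -1.46 and -1.28 in microglia. In that pair both kinds of CD11c libraries overlapped microglia. The immunoproteasome share of the summed CPM of all 49 genes was 12.7%, 12.2%, 9.63% and 5.52% in transgenic libraries, 11.0%, 11.5% and 13.6% in parabiotic libraries and 14.4%, 13.2% and 14.0% in microglia. The transgenic libraries all had a smaller share than microglia, and parabiotic replicate 15 fell inside the range of microglia.

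**Figure D5:**
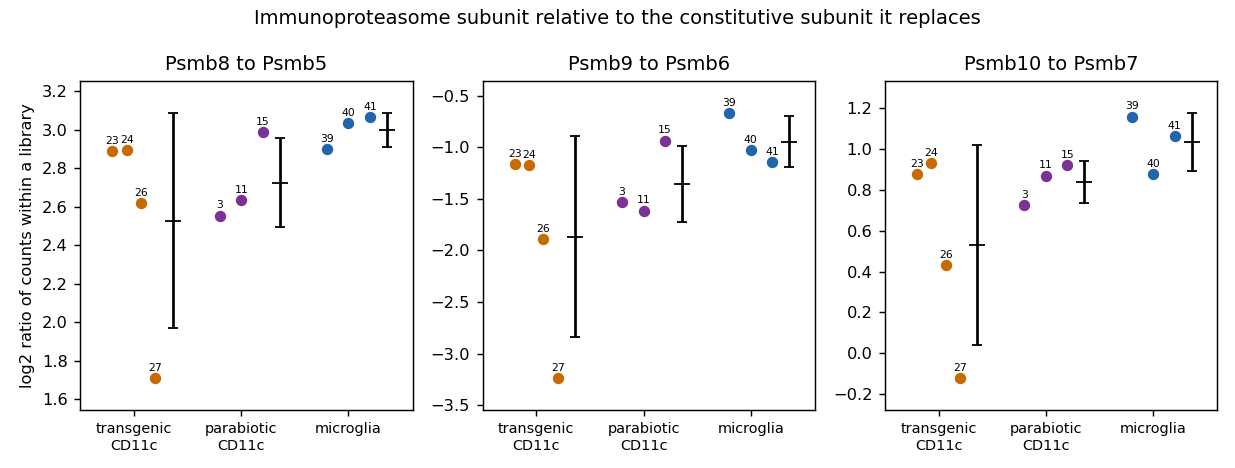
Log2 ratio of each immunoproteasome gene to its constitutive counterpart (vertical axis), 1 numbered point per library with the mean ± SD beside each group, transgenic left, parabiotic in the middle and microglia right. Transgenic points of Psmb8 to Psmb5 and Psmb9 to Psmb6 all lie below those of microglia, the nearest by a narrow margin. Replicate 27 is the lowest, at 1.71 and -3.24.

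Levels between genes, per kilobase of exon, spread widely within the 20S core although its subunits enter the particle in equal number. Over the 14 subunits Psma1 to Psma7 and Psmb1 to Psmb7, the lowest was Psma3 at 7.68, 6.96 and 4.84 CPM per kilobase in transgenic, parabiotic and microglia means, and the highest was Psmb6 at 255, 273 and 167 CPM per kilobase. The order at both ends was the same in all 3 groups. Exon length here is the union of annotated transcripts, so a gene with long unused exons reads low.

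Partners of the proteasome outside the symbol rule were measured from a list of 30, of which 28 had values. In parabiotic cells against microglia 5 of the 28 were higher, close to the 17.4% of all genes, and 2 were lower, where 17.9% of all genes were, with a median log2 fold change of 0.23. Sem1, the small subunit of the 19S lid, averaged 163 ± 16.0 CPM in parabiotic libraries and 64.6 ± 10.4 CPM in microglia (SD, n = 3 each), a log2 fold change of 1.33 with an adjusted p of 0.00838 in the edgeR fit. Zfand2a, an arsenite-inducible proteasome-associated protein, was higher by 1.05. Akirin2, which is needed for import of proteasomes into the nucleus, was lower at -0.78 (adjusted p = 0.00308, edgeR), and Ecpas, a proteasome adaptor and scaffold, at -0.57. The call of Ecpas was lost without any 1 of the parabiotic or microglia libraries. Uncalled were the ubiquitin receptor Adrm1 at 0.25, the maturation factor Pomp at 0.25, the deubiquitinase Usp14 at 0.55, and the transcription factors Nfe2l1 at -0.11 and Nfe2l2 at 0.20.

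In transgenic cells against microglia 3 partners were higher, Sem1 at 1.47, Uchl5 at 1.13 and Usp14 at 0.73, the last 2 being deubiquitinases of the 19S cap, and Akirin2 was lower at -0.59, where 8.88% of all genes were higher and 4.79% lower. Uchl5 and Usp14 had adjusted p of 0.0495 and 0.0497 (edgeR), and both calls were lost without any 1 library other than transgenic replicates 23 and 24. The calls of Sem1 and Akirin2 were lost without microglia replicate 39 or 40. In transgenic against parabiotic cells 0 partners were called by edgeR. At an unadjusted p under 0.05, 1 was higher and 1 lower, where 14.6% and 9.11% of all genes were. DESeq2 called 1 higher (10.4% of all genes) and limma-voom called 0.

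The pathway that uses proteasome peptides, MHC class I loading, had 14 genes with values of 15 listed. Against microglia 0 were higher in either kind of CD11c cell, by edgeR at an adjusted or unadjusted p, by DESeq2 or by limma-voom. Of all genes tested, 17.4% were higher in parabiotic and 8.88% in transgenic cells (edgeR). In each comparison 1 of the 14 was lower, where 17.9% of all genes were in parabiotic and 4.79% in transgenic cells. In parabiotic cells Calr, a chaperone of the loading complex, was lower than in microglia (-0.48, adjusted p = 0.0397, edgeR), a call lost without any 1 of 6 libraries: parabiotic replicates 3, 11 and 15, transgenic replicate 23 and microglia replicates 40 and 41. In transgenic cells Tap1, a subunit of the peptide transporter and the neighbour of Psmb9, averaged 116 ± 39.6 CPM (SD, n = 4), against 217 ± 31.7 CPM in microglia (SD, n = 3), and was lower (-0.91, adjusted p = 0.0437, edgeR). That call was lost without any 1 library except transgenic replicates 23, 24 and 27. Tap2 was not called, at -0.32 in transgenic and 0.01 in parabiotic cells against microglia.

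Of 14 genes of interferon signalling to the immunoproteasome, 2 were higher and 3 lower in parabiotic cells than in microglia, shares near those over all genes, of which 17.4% were higher and 17.9% lower. Irf1, a transcription factor that activates Psmb9 and Tap1, averaged 80.3 ± 15.6 CPM in parabiotic libraries and 277 ± 81.0 CPM in microglia (SD, n = 3 each), and was lower by a log2 fold change of -1.78 (adjusted p = 0.000235, edgeR). Stat2, which carries the interferon signal to the nucleus, was lower at -1.44. The kinase gene Jak2 and the receptor gene Ifnar1 were higher at 1.54 and 0.91. Whether the levels of these 4 genes bear on Psmb8, which was higher in parabiotic cells than in microglia, was not tested. In transgenic cells against microglia Stat2 and Irf1 were lower at -1.55 and -0.92, the second call being lost without microglia replicate 39. They were 2 of the 14, where 4.79% of all genes were lower. Irf1 was higher in transgenic than in parabiotic cells at 0.87 (adjusted p = 0.0325, edgeR), a call lost without any 1 parabiotic library or transgenic replicate 26. That was 1 of the 14, where 7.63% of all genes were higher. Nlrc5, the activator of MHC class I genes, was not called, at -0.96 in transgenic and -0.76 in parabiotic cells against microglia.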

How the data were processed

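Counts of RNA sequencing reads per Ensembl gene were deposited by the authors as whole numbers for 28585 genes in 10 libraries. Per the labels, the cDNA kit used template switching and the library kit keeps no strand, and per the submitters' processing notes FastQC 0.11.5, STAR 2.5.3a, DESeq2 and the build GRCm38 were used. Not given in the sources used here are the counting program and its treatment of reads that map to several places. Symbols came from GENCODE M21, which matched 28492 identifiers. Groups followed the labels and titles.

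The filterByExpr function kept 15151 genes and removed 13434. A single fit of the 10 libraries had a mean for each group, TMM scaling and the robust quasi-likelihood F test of edgeR 4.0.16 in R 4.3.3, with Benjamini-Hochberg adjustment over all genes tested and a threshold of 0.05. The biological coefficient of variation was 0.317, and with 31534625 to 41730688 counts per library the spread between replicates set the precision. CPM values and SDs are TMM-scaled, and an SE is the fold change over the root of its F statistic. The procedure was tested on simulated data. Alternatives were DESeq2 1.42.0, limma-voom (limma 3.58.1), RLE and upper quartile scaling, no filter and a stricter filter (5 CPM or more in 3 libraries or more). Others were fits of 2 groups alone, a term for transgenic replicates 26 and 27, those left out together, and each library left out in turn. The term and the joint omission both take the transgenic level from the other transgenic libraries, so they are not separate checks.

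All members of the symbol rule were named or counted. The immunoproteasome and constitutive catalytic genes were given in every library, other members where called, and from the other lists the 3 called with the lowest p in each direction and 10 regulators by name, some of which are not reported here. The members and lists were chosen with earlier results of these data known.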

Additional observations from a re-analysis of the deposited data

Results flagged for a closer look

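In the 4 transgenic CD11c libraries, 56 values per library were screened for a library whose gap to its nearest neighbour exceeded the critical share of the range for groups of 4, which chance passes in about 1 in 20 groups, and 4 passed. Psmb9 was low in transgenic replicate 27, at 25.2 CPM where the other transgenic libraries had 66.7 to 75.2 CPM. The summed CPM of the immunoproteasome set was low in the same library, at 335 where the others had 473 to 496. Psmd3 was high in replicate 27, at 186 CPM where the others had 116 to 117 CPM. Psmc3ip was high in replicate 26, at 7.03 CPM where the others had 2.99 to 3.29 CPM.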

How the results depend on the processing

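Over 19 alternatives, none of the 27 called pairs of a proteasome gene and a comparison changed sign. These pairs were picked by the test in these same data, and the alternatives reuse most libraries, so few changes of sign could arise. Some uncalled members outside the count that follows did change. In transgenic against parabiotic cells the sign turned in 9 of 19 alternatives for Psma2 and in 7 for Psmc2. Of 1661 values of named genes, 1372 kept direction and call, 193 lost the call, 69 gained it and 27 changed sign, all 27 of them uncalled. The cause of these changes was not tested. The count higher in parabiotic cells than in microglia (21) was 38 with only these 2 groups fitted, 34 with a term for transgenic replicates 26 and 27, 39 without both, and 4 to 31 with each library left out in turn. The share of all genes higher moved with it, at 26.3%, 22.8%, 27.4% and 10.6% to 21.8%, beside 17.4%, and the count lower (1) was 0 to 1. The count higher in transgenic cells than in microglia (5) was 2 with RLE or upper quartile scaling, where 7.86% and 7.83% of all genes were. It was 15 by DESeq2 (13% of all genes), 3 by limma-voom (6.82%) and 3 with no filter (3.77%). With only these 2 groups it was 0 (5.28%), with the term 0 (6.75%) and without both replicates 2 (9.96%). With each library left out it was 0 to 17, where 3.54% to 12% of all genes were higher. The count lower (0) was 1 by DESeq2 (9.66%), 1 without both (5.69%) and 0 to 1 with each library left out (1.04% to 5.87%). The count lower in transgenic than in parabiotic cells (0) was 1 by DESeq2 (5.57% of all genes), 5 with the term (2.53%) and 19 without both (9.23%). With each library left out it was 0 to 4 (0.697% to 5.7%), and the count higher stayed at 0. Against microglia in transgenic cells, Psmb10 turned to 0.03 with the term and 0.02 without both, from -0.18 to 0.06 with each library left out. Psmb9 turned to 0.11 in both, and ran from -0.32 to 0.08. Psme2 ran from -0.06 to 0.19, and Psmb7 against parabiotic cells from -0.20 to 0.07. In parabiotic cells against microglia, Psmg3 and Tap2, each at 0.01, both turned to -0.01 with RLE scaling, DESeq2 or no filter, -0.07 with upper quartile scaling and -0.05 with the stricter filter. With each library left out Psmg3 ran from -0.06 to 0.08 and Tap2 from -0.08 to 0.12. No paired analysis was possible because the groups share no replicate numbers.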
